A study of Sus scrofa with 3 samples.

Results

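The genes described here encode proteins that splice pre-mRNA or handle RNA in other ways. They were picked by a rule on names, and the choice was made with earlier results of these data known. A gene was included when its single symbol in the array annotation began with SNRP, SRSF, SFRS, HNRNP, HNRP, SF3A, SF3B, PRPF, U2AF, LSM, DDX, DHX or RBM (with a number after SRSF, SFRS, LSM, DDX, DHX and RBM), and 1 symbol, DDX58, was left out by that rule. This gave 105 genes read by 163 probe sets, out of 6765 named genes. A probe set is the group of short probes whose brightness is condensed into 1 signal for a transcript. RNA came from minipig lung, and 3 arrays were measured, 1 per group. The sham array carries lung tissue of a sham minipig. The operated array carries the left lung of a minipig with ischemia-reperfusion, made by a transient block of the left pulmonary artery that spared the bronchus, so that air still reached the lung. The non-operated array carries the lung of the other side, from a minipig that had this procedure. The sources used here do not give age, sex, breed, time after reperfusion, any pooling of animals, or whether both ischemia-reperfusion lungs came from 1 animal.

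Splicing removes introns from pre-mRNA and is carried out by the spliceosome, a machine built on small nuclear RNAs. Each of these RNAs is wrapped in a ring of Sm or LSM proteins and joined by proteins of its own, and the particles U1 and U2 mark the start of an intron and its branch point. SR proteins bind exons and mostly help their inclusion, while hnRNP proteins coat nascent RNA and often oppose it. DEAD and DEAH box proteins are RNA helicases, some of which rearrange the spliceosome while others work in mRNA export, ribosome assembly, translation or RNA decay. Proteins of the RBM series share an RNA-binding fold and otherwise have varied tasks. Most of these genes are active in every tissue, and their RNA is often more abundant in growing and dividing cells.

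In both lungs after ischemia-reperfusion, most of these genes had lower signals than in sham, by amounts that were mostly under 2-fold. Proteins of the Sm ring and of the U1 and U2 particles had the lowest medians of the 8 roles, with SNRPN, SNRPD1 and SNRPA each at least 2-fold lower in either lung. By the brightest probe set of each gene, RBM7 was the only gene of the set at least 2-fold higher, in either lung. Some dimmer probe sets of SRSF6 were also at least 2-fold higher in each lung. The operated and the non-operated lung differed little from each other in these genes. With 1 array per group, no spread between animals can be had, so no p-values are given and a fold describes a pair of arrays, not the conditions.

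Signals are given on the log2 scale, where 1 unit is a 2-fold difference. A floor was set at each array's median signal, 7.33 on the log2 scale for sham, 7.31 for the non-operated and 7.31 for the operated lung. Each comparison took in the genes that exceeded the floor on 1 or both of its arrays, and a lower value was raised to the floor, so that such a fold is a lower bound. Of the 105 genes, 97 lay above the floor on sham, 96 on the non-operated and 96 on the operated array. On all 3 arrays 95 genes were above the floor, on 2 of the arrays 2 genes (DDX11 and RBM28), and on none of them 8 genes. These 8 were DDX4, which is known from germ cells, DDX25, which is known from testis, DDX49, DDX54, DDX56, DDX60, SRSF12 and U2AF2, the large subunit of the factor that binds the end of introns. They received no fold. For sham, 92.4% of these genes were above the floor, against 71.6% of all named genes.

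For the operated lung against sham, 97 genes were counted. Their median log2 ratio was -0.39, against -0.11 over all 5097 named genes counted. Ratios below 0 were found for 83 of the 97 genes, or 85.6%, against 57.7% of all genes. At least 2-fold lower signals were found for 15 genes, or 15.5%, where the share over all genes was 8.79%. At least 2-fold higher signals were found for 1 gene, where the share over all genes was 8.65%. The ratios of the set were also less spread, with an SD over genes of 0.50 against 0.82 over all genes. The set was thus shifted to the lower side, and it held few genes with a large ratio on the higher side.

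For the non-operated lung against sham, the median log2 ratio of the 97 genes counted was -0.45, against -0.10 over 5113 genes. Ratios below 0 were found for 85 of the 97, or 87.6%, against 56.6% of all genes. At least 2-fold lower signals were found for 12 genes, or 12.4%, with 8.55% over all genes. At least 2-fold higher was again 1 gene, with 8.96% over all genes. Both comparisons use the same sham array, so an unusual signal there would enter both, and their likeness is not a repeat measurement. Set against the median of all genes rather than against 0, the median of the set was -0.28 in the operated and -0.35 in the non-operated lung. On that scale SRSF7, SNRPC, RBM34 and RBM4 were no longer 2-fold lower in the operated lung, nor DDX50 in the non-operated lung. RBM23 then passed 2-fold on the higher side in the operated lung, so that 2 genes did.

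**Figure D1:**
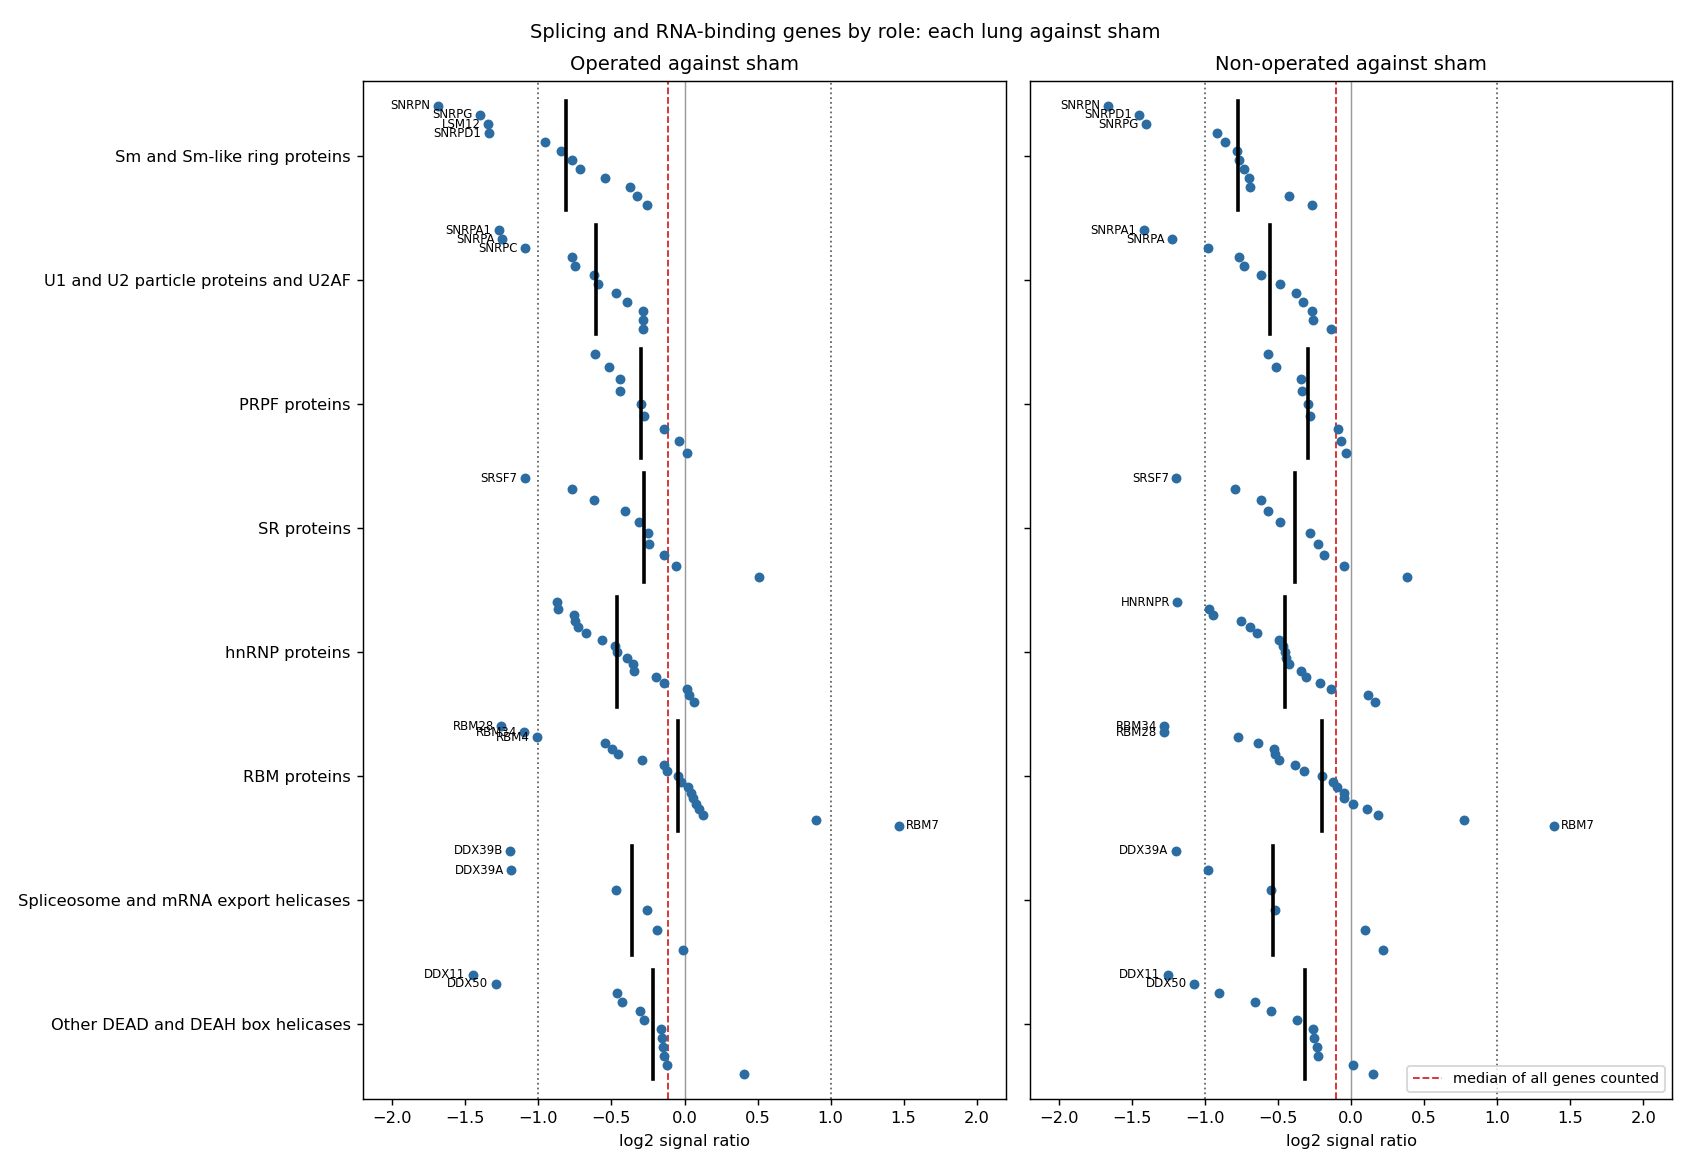
Log2 signal ratio (horizontal axis) of each counted gene by role (rows), for the operated lung against sham (left) and the non-operated lung against sham (right). Each point is a gene, black bars are medians of a role, dotted lines mark 2-fold, the dashed red line is the median of all named genes, and genes at least 2-fold from sham are named. All Sm, LSM, U1, U2 and U2AF points lie below 0 in both panels, and RBM7 is the only point beyond 2-fold on the higher side.

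Several markers of cell types differed between the arrays in the same comparisons. Of 17 counted markers of dividing cells, 17 were at least 2-fold lower than sham in each lung, and the summed linear signal of the 19 measured was 37769 in sham, 7187 in the non-operated and 6150 in the operated lung. The 11 markers of B and T lymphocytes summed to 16169 in sham, 3259 in the non-operated and 3371 in the operated lung, and 9 of 11 were at least 2-fold lower in each lung. The 12 endothelial markers summed to 9544, 31184 and 28410, and the 5 macrophage markers to 3394, 14914 and 15547, in the same order. Of these markers, KDR, TIE1, ENG and CD14 were below the floor on every array. The 5 measured lung epithelium markers summed to 31462, 36063 and 36659, and all 5 were above sham in the operated and 4 of 5 in the non-operated lung. SFTPC, the surfactant protein C gene, was at 14.44 in sham, 14.56 in the non-operated and 14.52 in the operated lung on the log2 scale. SFTPD was 1.70-fold higher in the non-operated and 1.59-fold higher in the operated lung, and SFTPB 1.08-fold and 2.35-fold higher. SFTPA1 had log2 ratios of -0.16 and 0.10, and AGER, below the floor in sham, was at least 1.92-fold and 1.75-fold higher. The 2 red blood cell markers measured, HBB and ALAS2, summed to 890, 1274 and 1573. The part of these shifts in the ratios of the splicing genes was not tested. In tissue RNA, fewer cells of a type and less RNA per cell cannot be told apart.

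The Sm and Sm-like ring genes were lower in both lungs without exception among the 12 measured. Their median log2 ratio was -0.81 in the operated and -0.78 in the non-operated lung, with 4 and 3 of 12 at least 2-fold lower. Those counts are 33.3% and 25% of the role, where the shares over all genes were 8.79% and 8.55%. The count in the operated lung includes LSM12, which is not part of the ring on the U6 RNA. SNRPN, which encodes a close relative of the Sm protein SNRPB and is expressed from an imprinted locus, had log2 signals of 11.08 in sham, 9.42 in the non-operated and 9.39 in the operated lung. It was 3.17-fold lower in the non-operated and 3.23-fold lower in the operated lung, the largest fold that is not a bound in either comparison. DDX11, below the floor in the operated lung, had a log2 ratio of -2.22 there with no floor, beyond that of SNRPN. Both probe sets of SNRPN were at least 2-fold lower in each lung, the other at -1.16 in the non-operated and -1.20 in the operated lung.

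SNRPG, another subunit of the Sm ring, had log2 signals of 12.50 in sham, 11.09 in the non-operated and 11.10 in the operated lung, a 2.65-fold and a 2.64-fold lower signal. Its other probe set was below the floor on every array, and with the mean of its probe sets the log2 ratio in the operated lung was -0.78. For SNRPD1, also of the Sm ring, they were 12.30, 10.85 and 10.96, which is 2.74-fold and 2.53-fold lower. The sham array was the high one for each of these, and the lungs after ischemia-reperfusion lay within 0.11 of each other on the log2 scale. SNRPD3 was at 12.10, 11.32 and 11.25, SNRPB at 10.11, 9.42 and 9.57 and SNRPF at 8.72, 7.99 and 8.35 in the order sham, non-operated and operated. None of these 3 reached 2-fold.

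Among the LSM genes, many of whose products ring the U6 RNA or act in mRNA decay, LSM12 had the lowest ratio in the operated lung. Its log2 signals were 9.45 in sham, 8.59 in the non-operated and 8.11 in the operated lung, so that it was 2.54-fold lower in the operated and 1.82-fold lower in the non-operated lung. LSM12 is not part of the U6 ring, its other probe set was below the floor on every array, and its ratio in the operated lung was -0.22 with a floor at the 75th percentile and -0.84 with the mean of its probe sets. LSM2, LSM3, LSM6 and LSM7, which are part of that ring, had log2 ratios of -0.95, -0.72, -0.77 and -0.33 in the operated lung and of -0.77, -0.70, -0.92 and -0.42 in the non-operated lung. Another probe set of LSM6 was at -0.24 in the operated and -0.30 in the non-operated lung. LSM14A is a protein of cytoplasmic bodies where mRNA is stored or decayed. By the probe set that stood for each gene, LSM14A had the smallest ratios of this role, -0.26 in the operated and -0.27 in the non-operated lung.

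Genes of the U1 and U2 particles and of U2AF were lower in both lungs as well, 12 of 12 counted. Their median log2 ratio was -0.61 in the operated and -0.55 in the non-operated lung, with 3 and 2 of 12 at least 2-fold lower. Those counts are 25% and 16.7% of the role, against 8.79% and 8.55% over all genes. Both include SNRPA1 by its brighter probe set. SNRPA, which binds a loop of the U1 RNA, had log2 signals of 9.23 in sham, 8.01 in the non-operated and 7.99 in the operated lung, 2.34-fold and 2.37-fold lower. SNRPC, which helps U1 hold the start of the intron, was at 11.12, 10.39 and 10.03, 1.66-fold lower in the non-operated and 2.13-fold lower in the operated lung. SNRPA1 and SNRPB2 form a pair on the U2 RNA. SNRPB2 was at 11.17, 10.19 and 10.40, a log2 ratio of -0.98 in the non-operated and -0.77 in the operated lung.

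SNRPA1 was at 11.20 in sham, 9.79 in the non-operated and 9.93 in the operated lung by its brighter probe set, 2.67-fold and 2.42-fold lower. Its dimmer probe set read 8.05, 8.46 and 8.73, the opposite direction, with log2 ratios of 0.42 and 0.68. The direction for SNRPA1 therefore depends on the probe set, and the mean of both gave -0.50 and -0.30.

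The SF3A and SF3B subunits, which hold U2 at the branch point, had smaller ratios. SF3B6, which touches the branch point itself, was at 11.86 in sham, 11.24 in the non-operated and 11.11 in the operated lung. SF3A3 was at 11.53, 10.76 and 10.94 and SF3B2 at 9.70, 9.37 and 9.08. The log2 ratios of SF3A1, SF3B1, SF3B4 and SF3B5 ranged from -0.40 up to -0.28 for the operated and from -0.38 up to -0.14 for the non-operated side. None of the SF3A or SF3B genes reached 2-fold. U2AF1L4, a relative of the small U2AF subunit, was at -0.47 in the operated and -0.49 in the non-operated lung.

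**Figure D2:**
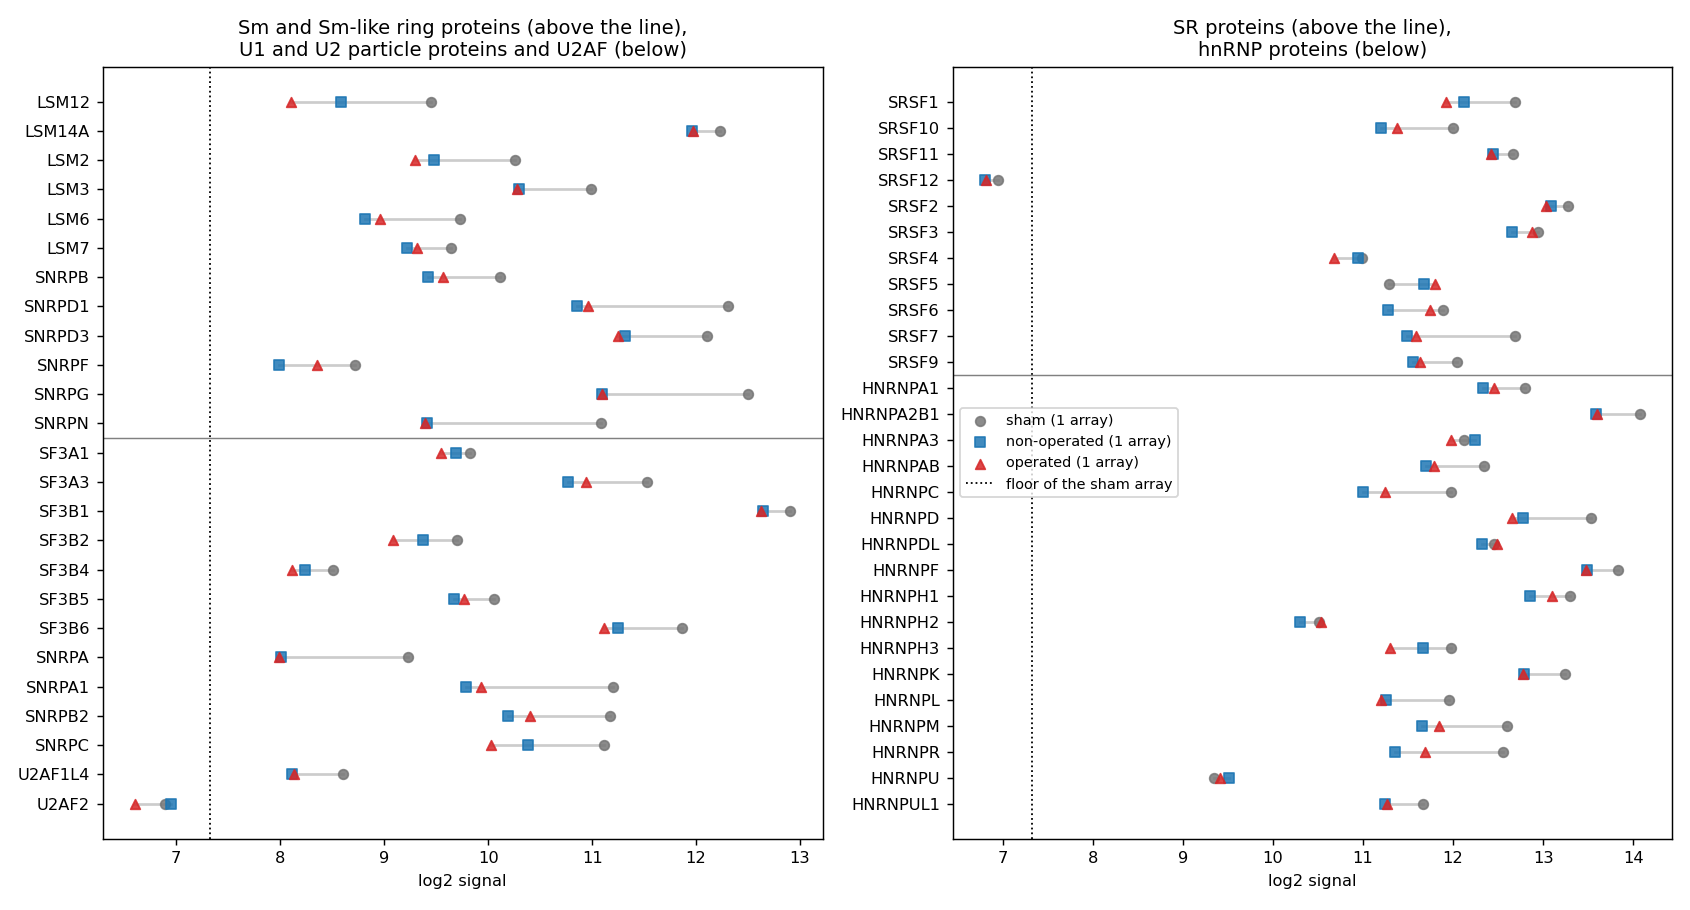
Log2 signal (horizontal axis) of each gene on the sham, non-operated and operated arrays (1 array each), for Sm, LSM, U1, U2 and U2AF genes (left) and SR and hnRNP genes (right). For SNRPN, SNRPG, SNRPD1, SNRPA and SRSF7 the sham point stands well to the right of the other 2, which lie close together, while SRSF5 and HNRNPU have their sham point on the left.

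The PRPF genes had narrow ratios. Their median log2 ratio was -0.30 in the operated and -0.29 in the non-operated lung, and 0 of 9 reached 2-fold in either. PRPF38A, a factor needed to activate the assembled spliceosome, had the lowest, with log2 signals of 10.27 in sham, 9.70 in the non-operated and 9.66 in the operated lung. PRPF19, a ubiquitin ligase and scaffold of the spliceosome, was at 10.71, 10.37 and 10.20. PRPF18 and PRPF39 were at -0.30 and -0.28 in the operated lung. PRPF4, PRPF31 and PRPF3, all of the particle that brings U4, U5 and U6 to the intron, had ratios of -0.44, -0.44 and -0.04 in the operated lung. PRPF4B, a kinase, had the highest ratio of the role in the non-operated lung, -0.03. PRPF38B was highest in the operated lung at 0.02, though a second probe set of that gene was at 0.44 in the operated and -0.54 in the non-operated lung.

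Among SR proteins, 10 of 11 genes were counted, with a median log2 ratio of -0.28 in the operated and -0.38 in the non-operated lung. In each lung 10% of these were at least 2-fold lower, against 8.79% and 8.55% over all genes. That was SRSF7 alone, by the probe set that stood for its gene. Its log2 signals were 12.68 in sham, 11.48 in the non-operated and 11.59 in the operated lung, 2.29-fold and 2.14-fold lower. SRSF1, the founding member of the family, was at 12.69, 12.12 and 11.92 by its brightest probe set. Its other 2 probe sets had log2 ratios of -1.05 and -1.28 in the operated lung and of -1.11 and -1.17 in the non-operated lung, so that they passed 2-fold where the brightest did not. SRSF10 had log2 ratios of -0.80 in the non-operated and -0.62 in the operated lung, and over its 4 probe sets above the floor they ran from -0.85 to -0.46 for the operated and from -1.59 to -0.69 for the non-operated side. SRSF2, SRSF3, SRSF4 and SRSF9 were at -0.24, -0.06, -0.31 and -0.41 in the operated lung and at -0.19, -0.28, -0.05 and -0.48 in the non-operated lung. The second probe set of SRSF9 went the other way, at 0.35 in the operated and 0.16 in the non-operated lung. SRSF5 was the only SR gene higher than sham by its own representing probe set, at 11.29, 11.68 and 11.80.

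SRSF6 gave opposite readings by probe set. Its brightest probe set read 11.89 in sham, 11.27 in the non-operated and 11.75 in the operated lung, a log2 ratio of -0.62 and -0.14. For the other 5 probe sets the ratios ran from 0.57 to 1.80 on the operated and from -0.02 to 1.45 on the non-operated side. Of these, 1 read 9.10 in sham, 10.55 in the non-operated and 10.89 in the operated lung, and another 9.25, 10.68 and 10.72. In the operated lung 5 of 6 probe sets were thus higher than sham, against the direction of the brightest. Which transcripts these probe sets read was not tested. SRSF11 also varied, with 4 probe sets between -0.78 and 0.02 in the operated and between -1.02 and 0.02 in the non-operated lung.

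**Figure D3:**
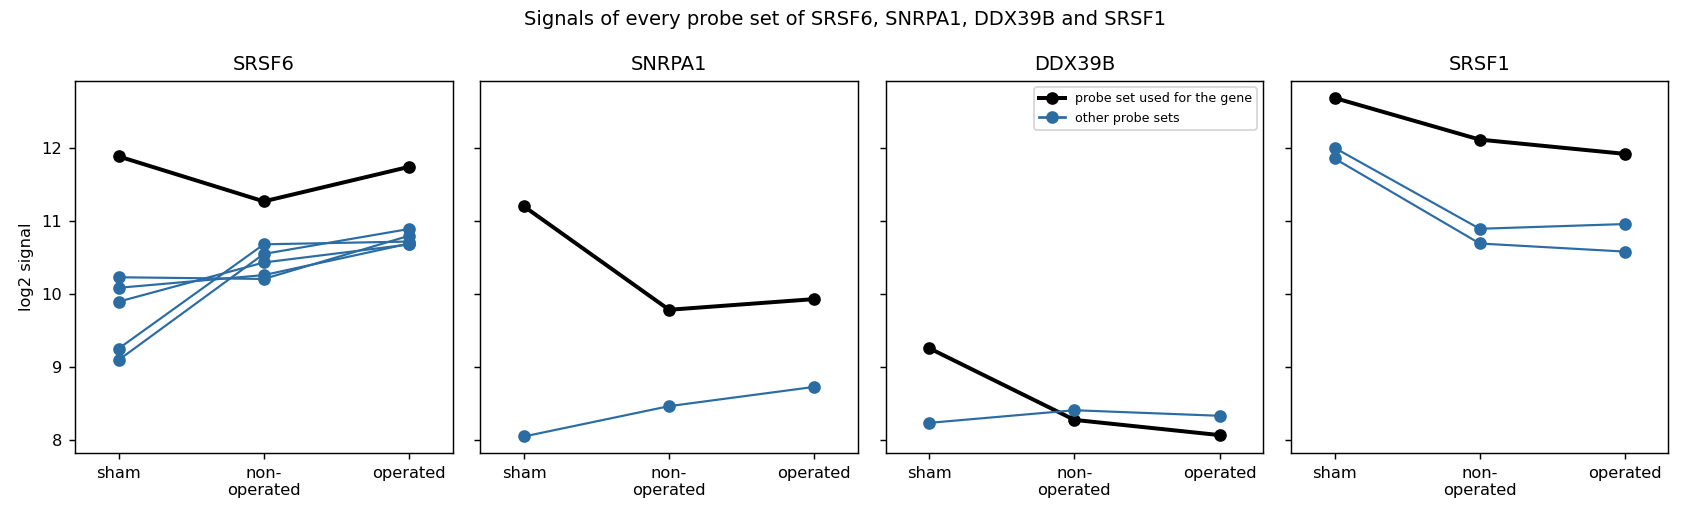
Log2 signal (vertical axis) of every probe set of SRSF6, SNRPA1, DDX39B and SRSF1 on the sham, non-operated and operated arrays (1 array each). The black line is the probe set that stands for the gene and blue lines are the others. The lines of SRSF6, SNRPA1 and DDX39B go in different directions, and the 3 lines of SRSF1 all go down from sham.

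How far the probe sets of a gene differ is the only internal measure of error on these arrays, and it does not cover differences between animals. Over the 26 genes of the set with several probe sets above the floor on both arrays, the pooled SD of the log2 ratio was 0.45 for the operated lung against sham. It was 0.51 over 24 genes for the non-operated lung against sham and 0.22 over 24 genes between the lungs. All probe sets lay on the same side of 0 for 17 of 26 genes (65.4%) in the first of these comparisons, against 73.5% of all 801 such genes. Of the 16 genes at least 2-fold from sham in the operated lung, 5 had several probe sets counted, and for 3 of those every probe set was on the same side (DDX39A, RBM34 and SNRPN). In the non-operated lung it was 4 of 5, the same 3 and HNRNPR. Most genes beyond 2-fold therefore rest on 1 probe set.

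The hnRNP genes were mostly lower, with a median log2 ratio of -0.46 in the operated and -0.45 in the non-operated lung. Ratios below 0 were found for 14 of 17 in the operated and 15 of 17 in the non-operated lung. Those are 82.4% and 88.2%, against 57.7% and 56.6% over all genes. HNRNPR, one of the lowest, was at 12.55 in sham, 11.36 in the non-operated and 11.69 in the operated lung. It was 2.28-fold lower in the non-operated lung and 1.82-fold lower in the operated lung, and its second probe set was at -1.65 and -1.07. HNRNPD, which binds AU-rich elements of unstable mRNA, was at 13.53, 12.78 and 12.66, a log2 ratio of -0.75 and -0.87. Its other probe set passed 2-fold, at -1.13 in the non-operated and -1.02 in the operated lung. HNRNPM was at 12.60, 11.65 and 11.85, HNRNPC, which coats nascent transcripts, at 11.97, 11.00 and 11.24 and HNRNPL at 11.96, 11.26 and 11.20. The second probe set of HNRNPC was at -0.07 in the operated lung and at a bound of -0.34 in the non-operated lung. The sham array was the highest of the 3 for each of these genes.

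At the other end of the hnRNP genes, HNRNPU, a nuclear scaffold protein, was at 9.35 in sham, 9.52 in the non-operated and 9.42 in the operated lung. HNRNPA3 was at 12.12, 12.24 and 11.98. Neither differed from sham by more than the pooled SD between probe sets of a gene in the comparisons with sham. Between the lungs HNRNPU was at -0.10 and HNRNPA3 at -0.26, the latter beyond the pooled SD of 0.22 for that comparison. HNRNPA2B1, HNRNPK, HNRNPF and HNRNPA1, all common coat proteins of mRNA, had log2 ratios of -0.48, -0.46, -0.35 and -0.35 in the operated lung and of -0.49, -0.45, -0.34 and -0.47 in the non-operated lung. The second probe set of HNRNPK was at 0.02 in the operated and -0.37 in the non-operated lung. HNRNPAB and HNRNPUL1 were at -0.56 and -0.39 in the operated lung, and HNRNPH1, HNRNPH2 and HNRNPDL at -0.20, 0.02 and 0.03. Some hnRNP genes have many processed copies in mammalian genomes, and whether their probe sets read such copies was not tested.

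The RBM genes lay on both sides of sham. Their median log2 ratio was -0.05 in the operated and -0.20 in the non-operated lung, with 8 of 19 and 5 of 19 above 0. Below 0 lay 57.9% and 73.7%, against 57.7% and 56.6% over all genes. RBM7, a subunit of the complex that hands nuclear RNA to the exosome for decay, was at 8.81 in sham, 10.20 in the non-operated and 10.28 in the operated lung. It was 2.62-fold and 2.77-fold higher, by a single probe set, and with a floor at the 75th percentile its log2 ratio in the non-operated lung was 0.95. RBM23, a relative of the splicing factor RBM39, was at 9.13, 9.90 and 10.03, a log2 ratio of 0.77 and 0.90. RBM39 itself was at 11.93, 11.88 and 12.03, which puts it near the sham signal in both lungs.

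On the lower side of the RBM genes, RBM28, a protein of the nucleolus, was at 8.59 in sham, 7.14 in the non-operated and 7.33 in the operated lung. It lay below the floor in the non-operated lung, where it was at least 2.43-fold lower, and just above the floor in the operated lung, where it was 2.39-fold lower. RBM34 was at 9.89, 8.61 and 8.79, which is 2.43-fold and 2.14-fold lower, and its second probe set gave bounds of -1.06 in each lung. With a floor at the 75th percentile the ratio of RBM34 in the non-operated lung was -0.67. RBM4, a regulator of alternative splicing, was at 9.03, 8.26 and 8.02, 1.71-fold and 2.01-fold lower. RBM17, RBM25 and RBM26 were at -0.55, -0.29 and -0.46 in the operated lung.

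RBM8A, a core subunit of the exon junction complex that marks spliced mRNA, was at 11.59 in sham, 11.06 in the non-operated and 11.09 in the operated lung. Its second probe set read 9.04, 9.54 and 9.51, the opposite direction. RBM3, which is induced by cold, was at 13.09, 12.71 and 13.07, so that it differed from sham by -0.38 in the non-operated and by -0.03 in the operated lung. By the probe set that stood for each gene, RBM5, RBM6, RBM12B, RBM18, RBM19, RBM42 and RBM48 lay between -0.14 and 0.13 in the operated and between -0.20 and 0.18 in the non-operated lung. Another probe set of RBM18 was at 0.44 in the operated and 0.05 in the non-operated lung, and another of RBM5 at -0.14 and -0.38.

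Helicases that act in the spliceosome or in mRNA export had a median log2 ratio of -0.36 in the operated and -0.53 in the non-operated lung over 6 genes. DDX39A was at 11.47 in sham, 10.27 in the non-operated and 10.29 in the operated lung, log2 ratios of -1.20 and -1.19, with its second probe set at a bound of -1.43 and at -1.41. DDX39B, its close relative, helps U2 to join the intron and carries spliced mRNA towards export. Its brighter probe set read 9.26, 8.27 and 8.07, which is 1.98-fold and 2.28-fold lower, and its other probe set read 8.23, 8.41 and 8.33. With a floor at the 75th percentile the ratios of DDX39B were -0.04 and -0.03, and with the mean of its probe sets -0.40 and -0.55. DHX15, which takes the spliceosome apart after use, was at -0.52 and -0.47, and DDX19A, which acts in mRNA export at the nuclear pore, at -0.55 and -0.26. DDX46, which remodels U2, was at 10.16, 10.38 and 10.14, with its other probe set below sham in both lungs at -0.55 and -0.25, and DHX9 was at 9.24, 9.34 and 9.06.

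The other DEAD and DEAH box genes had a median log2 ratio of -0.22 in the operated and -0.31 in the non-operated lung over 12 counted genes. DDX11, a DNA helicase that helps to hold sister chromatids together, was at 8.76 in sham, 7.50 in the non-operated and 6.54 in the operated lung. It was 2.39-fold lower on the non-operated side and at least 2.73-fold lower on the operated side, where it was below the floor. DDX50, a nucleolar helicase, was at 9.56, 8.49 and 8.27, 2.11-fold and 2.45-fold lower, and with a floor at the 75th percentile its ratio in the operated lung was -0.34. DDX21, its nucleolar relative, was at 11.46, 11.21 and 11.30. DDX20, a partner of the SMN protein that loads Sm rings, and DDX6, which acts in mRNA decapping, were at -0.12 and -0.30 in the operated lung. DDX27, DDX47 and DDX55, all of ribosome assembly, were at -0.16, -0.28 and -0.46 there. DDX51, also of ribosome assembly, had the highest ratio of this role, with 7.81 in sham, 7.96 in the non-operated and 8.22 in the operated lung.

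**Figure D4:**
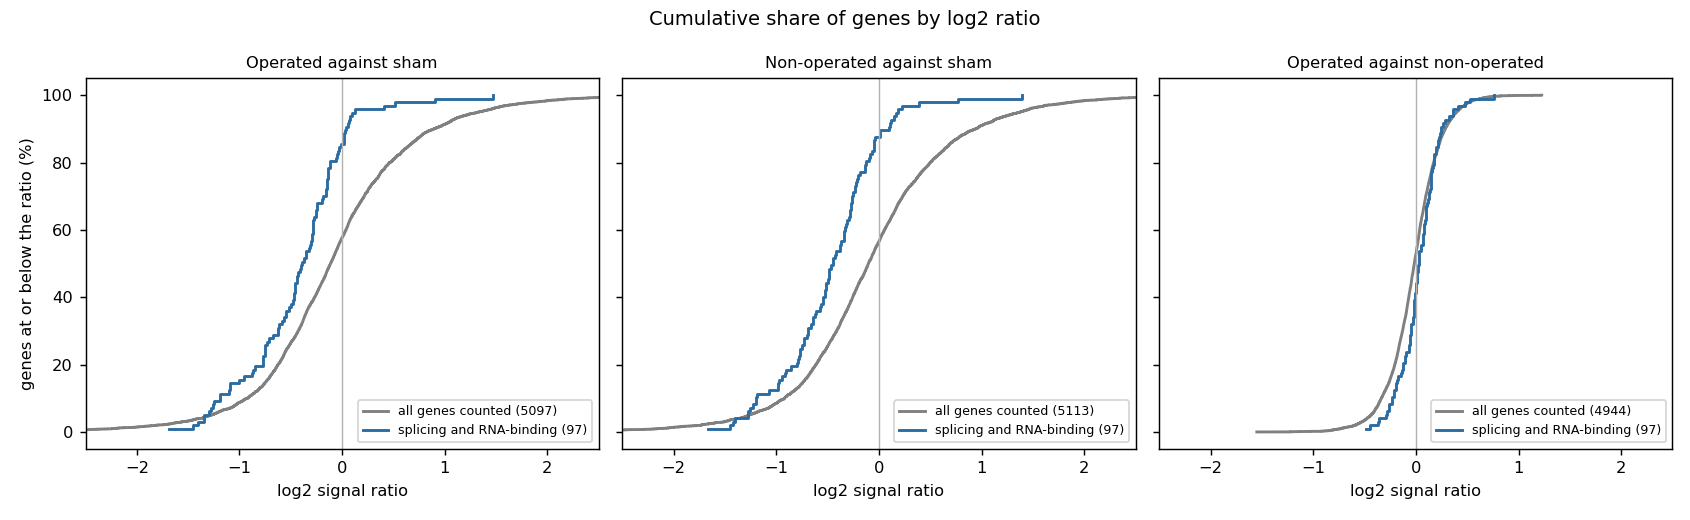
Cumulative share of genes in percent (vertical axis) by log2 signal ratio (horizontal axis) for the 3 comparisons, with the splicing and RNA-binding genes in blue (97 counted in each) and all named genes counted in grey. In the comparisons with sham the blue curve lies to the left of the grey one over most of its range, with 85.6% and 87.6% of the set below 0. Between the lungs the gap at 0 is smaller, with 42.3% of the set and 52.8% of all genes below 0.

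Between the operated and the non-operated lung, 0 of 97 genes of the set differed by 2-fold in either direction. Among 4944 named genes, 0.0607% passed 2-fold on the higher side and 0.182% on the lower, so that a count of 0 is close to the background. The median log2 ratio of the set was 0.03, against -0.02 over all genes, and 56 of 97 genes were above 0. Ratios below 0 were found for 41 of the 97, or 42.3%, against 52.8% of all genes. The SD over the genes of the set was 0.20, against 0.26 over all genes.

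DHX29, a helicase that helps ribosomes to scan structured mRNA leaders, had the highest ratio between the lungs. Its log2 signals were 9.55 in sham, 8.64 in the non-operated and 9.40 in the operated lung, 1.69-fold higher on the operated side, and the non-operated array was the low one of the 3. With a floor at the 75th percentile this log2 ratio was 0.18. RBM15B, an adaptor of the enzyme that methylates adenosine in mRNA, was at 8.61, 7.97 and 8.49, 1.44-fold higher on the operated side. SRSF6 was 1.39-fold and DDX1, a subunit of the tRNA ligase complex, 1.33-fold higher. For both probe sets of DDX1 the ratio was above 0, at 0.41 and 0.30, and for all 6 probe sets of SRSF6 it lay between 0.04 and 0.59.

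On the lower side, LSM12 was 1.40-fold lower in the operated than in the non-operated lung by its brighter probe set. With the mean of its probe sets this difference was lost, at a log2 ratio of 0.0036. DHX30, a helicase of mitochondrial RNA granules, was at 8.51 in sham, 8.52 in the non-operated and 8.08 in the operated lung, 1.36-fold lower on the operated side. HNRNPH3 and SNRPC were at -0.37 and -0.36 on the log2 scale. Larger values were read by dimmer probe sets of PRPF38B, RBM26 and SRSF10, which were higher in the operated lung by 0.98, 0.83 and 0.75 where the brightest of each gene gave 0.09, 0.07 and 0.17. With a pooled SD of 0.22 between probe sets of 1 gene, most genes of the set lay within the range that probe sets of the same gene span.

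**Figure D5:**
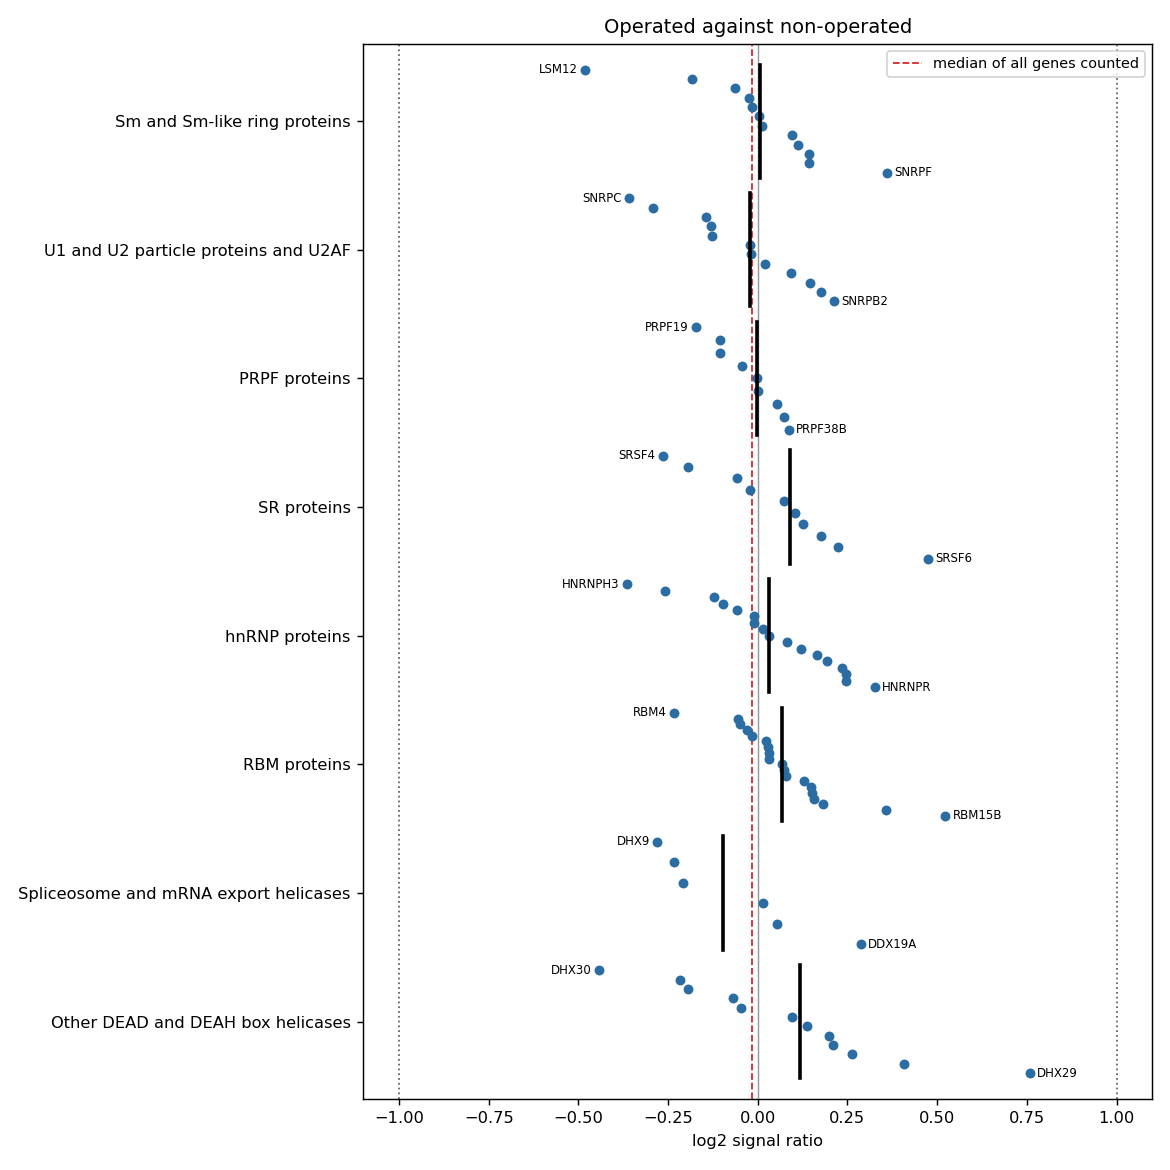
Log2 signal ratio of the operated against the non-operated lung (horizontal axis) for each counted gene by role (rows). Points are genes, black bars are medians of a role, the dashed red line is the median of all named genes, dotted lines mark 2-fold, and the lowest and highest gene of each role are named. All points lie between -0.48 for LSM12 and 0.76 for DHX29.

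Genes of the same pathways that the naming rule does not cover gave similar medians against sham. Of 57 further splicing factors listed, 36 were measured and 34 counted, with a median log2 ratio of -0.39 in the operated and -0.36 in the non-operated lung and with 2 and 3 at least 2-fold lower and 0 higher. The lower counts are 5.88% and 8.82% of the list, which is below and close to the shares over all genes, 8.79% and 8.55%. The lowest was WDR77, which works with the enzyme PRMT5 in methylating Sm proteins, at 11.18 in sham, 9.52 in the non-operated and 9.69 in the operated lung. PRMT5 was at -0.48 and -0.75. SF1, which binds the branch point before U2, was the highest, with log2 ratios of 0.71 in the operated and 0.56 in the non-operated lung. Between the lungs, ZMAT2 was highest at 0.31 and PLRG1 lowest at -0.36, both subunits of spliceosome particles. With the mean of all probe sets these ratios were 0.06 and 0.02, so that the direction of PLRG1 was not kept.

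Of 28 genes listed for the exon junction complex, mRNA export and decay of faulty mRNA, 14 were counted in the operated and 15 in the non-operated lung, and 0 reached 2-fold in either. Their medians were -0.46 and -0.40. ALYREF, an export adaptor, was lowest in the operated lung at -0.88, and NCBP2, which binds the mRNA cap in the nucleus, lowest in the non-operated lung at -0.84. CASC3 and SRRM2 were the highest, CASC3 at 0.03 in the operated and SRRM2 at 0.10 in the non-operated lung, where the mean of its probe sets gave -0.36.

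Splicing regulators and SR kinases had medians of -0.35 in the operated and -0.26 in the non-operated lung over 25 counted genes, with 2 at least 2-fold higher in each and 1 and 2 at least 2-fold lower. These are 8% higher in each lung and 4% and 8% lower, none above the shares over all genes. PTBP3, a relative of the polypyrimidine tract binding protein PTBP1, was at 11.93 in sham, 10.48 in the non-operated and 10.51 in the operated lung. PTBP1 itself had log2 ratios of 0.01 and -0.03. ESRP1, a splicing regulator of epithelial cells, was at 9.49, 10.62 and 10.73, and RBPMS, which is known from smooth muscle, at 8.40, 10.18 and 9.52, though with a floor at the 75th percentile the ratio of RBPMS in the non-operated lung was 0.93. KHDRBS1 was 2.19-fold lower in the non-operated lung, and its log2 ratio in the operated lung was -0.58. The kinases CLK1, CLK3 and CLK4, which phosphorylate SR proteins, were at 0.36, -0.06 and 0.08 in the operated lung. In the non-operated lung they were at 0.27, 0.26 and 0.16. CLK2 was at -0.89 in the operated and -0.61 in the non-operated lung.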

How the data were processed

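The authors deposited 1 log2 value per probe set and array. Per the submitters' processing notes these come from MAS5, which scales each array on its own; the sources used here do not give its version or scaling target. The log2 scale was read from the values, whose linear means after trimming 2% at each end lay between 496.2 and 497.1, so no further scaling was applied. Per the labels' protocols, total RNA was isolated by TRIZOL and labelled with a 3' in vitro transcription kit. Of 23999 probe sets, 64 controls were left out. The platform annotation gave 1 gene for 10069, several for 198 (not named) and none for 13668, and 163 of 163 probe sets of the set matched the RefSeq gene table of Sscrofa11.1 by gene identifier. The table had 0 further value columns.

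Ratios are differences of log2 signal after a floor at each array's median over non-control probe sets, with a threshold of 2-fold. The probe set with the highest mean signal stood for a gene. No detection calls were used. Each of the 3 groups holds 1 array, which limits the precision. The number of arrays allows no test. The steps were tested on simulated data. Python 3.11.15, numpy 2.4.6 and pandas 2.3.3 were used.

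The genes, the 8 role lists, the 3 lists of other RNA genes and the 6 marker lists were chosen with earlier results of these data known. Named genes were the 10 highest and 10 lowest ratios per comparison where both arrays exceeded the floor, bounds of at least 2-fold, the highest and lowest of each role or RNA list, and the 5 genes whose probe sets differed most. Other genes are given to account for a role or a list, without regard to their values. The exceptions are PRMT5, PTBP1, CLK1, CLK2, CLK3, CLK4, SFTPC, the dimmer probe sets and the ones set beside a relative. Those were chosen after their values were seen. Alternatives covered the floor, scaling, a pseudocount, the choice of probe set and the threshold. A planned count of protein motifs was not run, and sequences are not used here.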

Additional observations from a re-analysis of the deposited data

Results flagged for a closer look

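The 10 genes named here, of 97 counted, had log2 ratios against sham on opposite sides of 0 in the operated and the non-operated lung. These ratios are by the probe set that stood for the gene, and the share over all genes was not counted. The difference was not tested, since each lung is 1 array and both ratios use the same sham array. The log2 ratio of the operated against the non-operated lung was -0.44 for DHX30, -0.28 for DHX9, -0.26 for HNRNPA3 and -0.23 for DDX46, which were lower than sham in the operated and higher than sham in the non-operated lung. It was 0.24 for HNRNPH2, 0.16 for HNRNPDL, 0.15 for RBM39, 0.149 for RBM6, 0.086 for PRPF38B and 0.072 for RBM19, which were higher than sham in the operated lung only. The ratio of DHX30 in the non-operated lung was 0.01. For RBM39, 1 of 3 probe sets was on the higher side in the operated lung. The second probe set of HNRNPH2 was below sham in both lungs, at -0.13 in the operated and -0.35 in the non-operated lung. That of DDX46 was also below sham in both, at -0.25 and -0.55, and at 0.29 between the lungs, opposite to the first. The second probe sets of HNRNPDL and PRPF38B lay on opposite sides of 0 like the first.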

How the results depend on the processing

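The median log2 ratio of the set against sham was below 0 in every alternative run, with values of -0.39 to -0.28 for the operated and -0.45 to -0.35 for the non-operated lung against sham, while it was 0.02 to 0.07 between the lungs. Counting every probe set on its own was chosen after seeing the data. Beyond 2-fold lower, the count in the operated lung was 7 with a floor at the 75th percentile and 32 at a 1.5-fold threshold (all genes 21.7%). In the non-operated lung it was 7 with a floor at the 75th percentile and, at a 1.5-fold threshold, 35, or 36.1% (all genes 21.4%). With every probe set on its own, 22 of 136, or 16.2%, were at least 2-fold lower there (all probe sets of named genes 8.95%). With the floor at the 75th percentile, all genes gave shares of 6.04% and 5.92%, against 8.86% and 8.75% of the set. The count of genes at least 2-fold higher in the operated lung was 2 without a floor (all genes 11.0%) and 2 after centring on the median of all genes (10.1%). It was 2 at a 1.5-fold threshold (16.7%) and 3 of 136 with every probe set on its own (8.32%). In the non-operated lung it was 2 without a floor (12.0%) and 0 with a floor at the 75th percentile (7.48%). There it was 2 at a 1.5-fold threshold (17.5%) and 3 of 136 with every probe set on its own (8.65%). Between the lungs it was 1 without a floor (3.41%) and 1 at 1.5-fold (1.31%). Of 697 ratios of named genes under the alternatives, 26 moved by more than the SD between probe sets and 0 of those at least 2-fold in the report changed sign. Much of this was fixed beforehand. Centring shifts every ratio by less than that SD, and a lower floor leaves genes above it on both arrays unchanged. A pseudocount cannot change a sign, and a gene with 1 probe set cannot move with the mean of its probe sets. With the mean of all probe sets, 16 moved, among them SRSF6 to 0.85 and SNRPA1 to -0.30 in the operated lung, SRSF6 to 0.49 and SNRPA1 to -0.50 in the non-operated lung, DDX39B to -0.55 and RBM8A to -0.01 in the operated lung. The cause was not tested. No paired analysis was possible because each group holds 1 array, and no replicate could be left out.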
